A study of Mus musculus with 3 samples.

Results

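The C/EBP family comprises basic leucine zipper transcription factors that bind DNA as dimers. The genes described here are Cebpa, Cebpb, Cebpd, Cebpe, Cebpg and Ddit3, together with Cebpz, which carries the family name but has no leucine zipper. Every probe that was not an array control and that carried one of these 7 gene names in the scanner files was taken, in each of the 6 channels of the 3 arrays. The rule found 13 probes of 41174 in all, for 6 of the 7 genes: 2 for Cebpa, 2 for Cebpb, 1 for Cebpd, 3 for Cebpg, 4 for Cebpz and 1 for Ddit3. Cebpe, which drives the late steps of granulocyte maturation, was not analysed here. All 13 probes were well above background in all 6 channels and were among the 32906 probes that passed the filter on dim probes.

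The mutant group is labelled Mef2c-deficient and came from mice with the Mx1-Cre transgene and floxed Mef2c alleles (Mx1-Cre Mef2c f/f), and the control group came from mice with the floxed alleles and no Cre (Mef2c f/f). Each group had 3 libraries of 15000 sorted lineage-negative, c-kit+ Sca-1+ marrow cells, a gate known as LSK, whose cells the labels call multipotent progenitors (MPPs). Mice of both groups were given poly(I:C), which induces interferon and through it the Mx1 promoter, in 4 daily doses of 250 µg each, and cells were taken 2 days after the last dose. An effect of Cre itself cannot be told apart from that of Mef2c loss, and Mx1-Cre acts in many interferon-responsive cells, not in blood progenitors alone. The labels name neither ages nor the animals behind each replicate, which may be technical, so a p-value speaks of the spread among these libraries alone.

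C/EBPα, the product of Cebpa, is required for the step from multipotent progenitors to granulocyte and monocyte progenitors, and its forced expression turns lymphoid progenitors into myeloid cells. C/EBPβ and C/EBPδ are induced by inflammatory cytokines, and C/EBPβ sustains granulocyte output in emergencies such as infection. C/EBPγ, which lacks a classical activation domain, and CHOP, the product of Ddit3, change the activity of the other members by pairing with them. Mef2c is a MADS-box factor active in lymphoid progenitors, and the study's title places it in the choice between lymphoid and myeloid fate, which is the question to which the level of these factors belongs.

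As labelled, the largest mean difference in the family was at a Cebpa probe, A_52_P168567, which read 1.76 times as high in mutant as in control libraries and did not pass the adjusted test. With the sign of array 2 turned, that probe no longer had the largest mean: its log2 ratio was 0.34, against -0.72 at Cebpz A_52_P533350 and 0.59 at Cebpg A_51_P521216. The second Cebpa probe also lay above 0 on all 3 arrays, by less. Cebpb, Cebpd and Ddit3 had their highest level of the 6 libraries in control library 1, and the arrays differed in direction at Cebpd and at the Cebpb probe A_52_P63553, though not at the other Cebpb probe. Cebpg showed no common direction among its probes, and 2 of the 4 Cebpz probes read higher in every mutant library. None of the 13 probes passed limma's moderated test at an adjusted p under 0.05.

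The sign of array 2 is in doubt, and this applies to every signed value given here. The labels give Cy3 to the mutant and Cy5 to the control on each array, but the authors' deposited log2 ratios followed the scanner's own Cy5 to Cy3 ratios with a correlation of -0.947 on array 1, 0.935 on array 2 and -0.939 on array 3. The deposited column of array 2 therefore runs the other way from the other two, and the sources used here do not say whether that array was a dye swap. The labelled direction is used throughout. Values with array 2 turned stand beside many of the results. Without a balanced dye swap, a dye effect cannot be told apart from the genotype as labelled.

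All 3 arrays lay on 1 slide, between 73.4% and 80.3% of spots per channel were well above background, and no spot was saturated. Over all tested probes the log2 ratios of arrays 1 and 2 correlated at 0.286, those of arrays 1 and 3 at 0.0977 and those of arrays 2 and 3 at -0.0123, so the arrays shared little of their differences. The number of arrays limits the precision. The bright Mef2c probe (A_51_P135802) had log2 levels of 12.99, 13.09 and 12.83 in mutant libraries 1, 2 and 3, against 12.91, 12.99 and 13.78 in the control libraries. Its mean log2 ratio was -0.26 ± 0.61 (SD, n = 3; limma adjusted p = 0.771). The groups overlapped on this probe, and the sources used here do not say whether it lies in the deleted part of the gene, so it is no check of the deletion. LSK markers Kit and Ly6a (Sca-1) were well above background in all 6 libraries.

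Cebpb and Ddit3 were among the members with a probe highest in control library 1. Their promoters are shown because both are inducible genes whose known inducers include the cyclic AMP and stress pathways. Cebpd, Cebpg and Cebpz also had such a probe, and their promoters are not shown. Windows of 250 bases upstream of the start come from RefSeq on GRCm38.p6, and 4 of the 7 genes (Cebpa, Cebpb, Cebpg and Ddit3) had an entry. The search covered both strands for TGACG (the core of a cyclic AMP response element), the full element TGACGTCA (which contains TGACG), TGA with any base and then TCA (the AP-1 site of Fos and Jun), TTGCNNAA (a C/EBP site), CCAAT, and by name the MEF2 site and the endoplasmic reticulum stress element (which contains CCAAT). Capitals mark matches to TGACG in the window of Cebpb, chr2:167688665-167688914 (plus strand), and to the AP-1 site in that of Ddit3, chr10:127290543-127290792 (plus strand).
Cebpb: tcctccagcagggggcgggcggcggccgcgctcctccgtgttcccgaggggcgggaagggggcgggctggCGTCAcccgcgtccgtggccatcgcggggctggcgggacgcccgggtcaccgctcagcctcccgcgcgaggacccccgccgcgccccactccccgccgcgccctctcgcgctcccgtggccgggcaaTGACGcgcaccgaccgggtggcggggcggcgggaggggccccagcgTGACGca
Ddit3: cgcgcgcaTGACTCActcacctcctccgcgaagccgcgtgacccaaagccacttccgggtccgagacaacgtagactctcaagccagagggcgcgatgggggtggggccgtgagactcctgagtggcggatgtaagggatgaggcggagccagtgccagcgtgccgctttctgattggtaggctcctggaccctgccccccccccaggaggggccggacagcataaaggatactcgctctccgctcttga
The Cebpb window held 3 matches to TGACG, beginning 180, 53 and 7 bases before the start, and 17.77% of 32851 mouse promoter windows of that length held at least 1. The Ddit3 window held 1 AP-1 match, 242 bases before the start, which 6.75% of windows held, and 1 to CCAAT, which 33.85% held. Cebpg had 2 matches to CCAAT, and the Cebpa window matched none of the motifs searched. No window of the 4 matched TGACGTCA (1.55% of all windows), TTGCNNAA (9.56%), the MEF2 site (2.92%) or the stress element (0.11%). A match is a string of letters and not evidence of binding.

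Cebpa was measured by 2 probes that differed in size of response. At the 3′-most probe (A_52_P168567) the normalized log2 levels were 12.62, 12.06 and 12.58 in mutant libraries 1, 2 and 3, against 11.69, 11.34 and 11.78 in control libraries 1, 2 and 3. Every mutant library read higher than every control library. The log2 ratios of mutant over control were 0.93, 0.72 and 0.79, with a mean of 0.82 ± 0.11 (SD, n = 3; 95% interval 0.29 to 1.34). In limma's fit over all 32906 probes its unadjusted p was 0.00977 and its adjusted p 0.543. Across the alternatives the adjusted p lay between 0.429 and 1.

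The other Cebpa probe (A_51_P214087) lies 1156 bases further from the 3′ end in the file's coordinates, whose build is not named. It had log2 levels of 12.55, 12.67 and 12.26 in the mutant libraries, against 12.03, 12.58 and 12.13 in the control libraries. Here the groups overlapped, since control library 2 read above mutant libraries 1 and 3. Its log2 ratios were 0.52, 0.09 and 0.13, with a mean of 0.25 ± 0.24 (SD, n = 3; limma adjusted p = 0.710). With array 2 turned, the mean ratios of the 2 probes were 0.34 for A_52_P168567 and 0.19 for A_51_P214087, and without array 1 the mean of A_51_P214087 was 0.11.

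**Figure D1:**
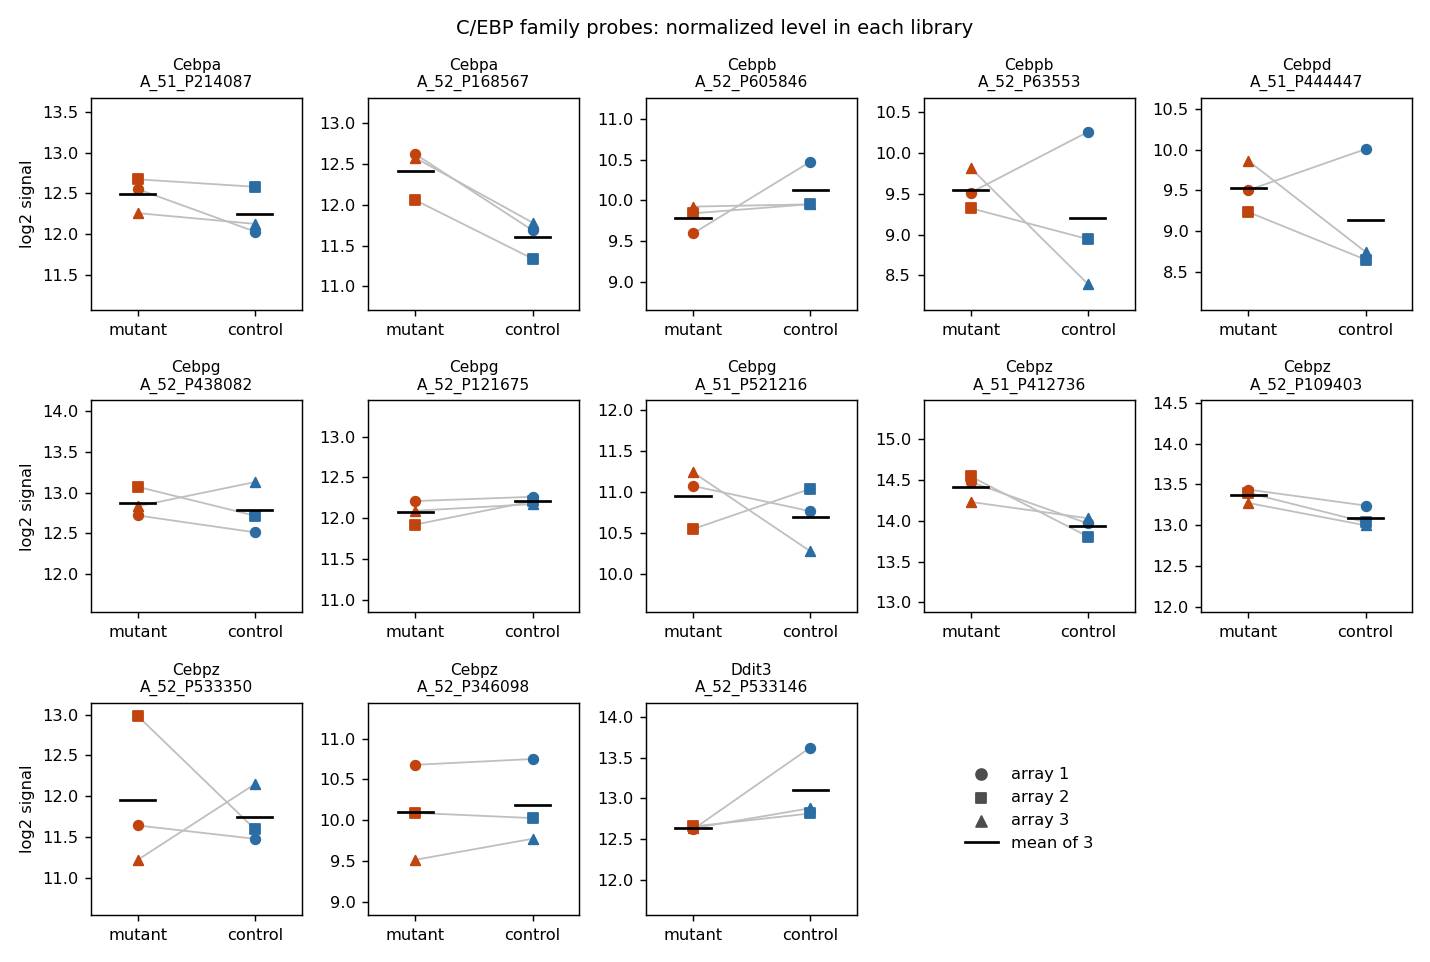
Normalized log2 signal (vertical axis) of each of the 13 C/EBP family probes in mutant and control libraries, with grey lines joining the pair on 1 array, marker shapes giving the array and black bars the mean of 3. Each panel spans its own range of signal, and levels are comparable within a panel only. At Cebpa probe A_52_P168567 every mutant point lies above every control point, and at both Cebpb probes, Cebpd and Ddit3 the highest point is the circle of control library 1.

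Cebpb, the emergency granulopoiesis factor, gave opposite mean directions at its 2 probes. At the 3′-most probe (A_52_P63553) the log2 levels were 9.51, 9.32 and 9.82 in the mutant libraries, against 10.26, 8.95 and 8.40 in the control libraries. Control library 1 read higher than all other libraries, and the other two control libraries read lower than all mutant libraries. The log2 ratios were -0.75, 0.38 and 1.42, with a mean of 0.35 ± 1.08 (SD, n = 3; limma adjusted p = 0.783).

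At the other Cebpb probe (A_52_P605846), 538 bases upstream, log2 levels were 9.59, 9.84 and 9.92 in the mutant libraries, against 10.47, 9.95 and 9.95 in the control libraries. Each mutant library read below each control library, by little on arrays 2 and 3. Its log2 ratios were -0.88, -0.11 and -0.03, with a mean of -0.34 ± 0.47 (SD, n = 3; limma adjusted p = 0.670). Without array 1 the means were -0.07 at A_52_P605846 and 0.90 at A_52_P63553. They were -0.27 at A_52_P605846 and 0.10 at A_52_P63553 with array 2 turned.

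Cebpd, which like Cebpb is induced in inflammation, had 1 probe (A_51_P444447). Its log2 levels were 9.502, 9.23 and 9.86 in the mutant libraries, against 10.01, 8.65 and 8.74 in the control libraries. The pattern was that of the 3′-most Cebpb probe: control library 1 was the highest of the 6 and the other control libraries were the lowest. The log2 ratios were -0.50, 0.58 and 1.12, with a mean of 0.40 ± 0.83 (SD, n = 3; limma adjusted p = 0.704). The mean was 0.85 without array 1, 0.04 without array 3 and 0.01 with array 2 turned.

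Ddit3 encodes CHOP, a stress-induced partner that keeps other C/EBP proteins from their usual sites. Its probe (A_52_P533146) had log2 levels of 12.62, 12.66 and 12.63 in the mutant libraries, against 13.62, 12.81 and 12.88 in the control libraries. All mutant libraries lay below all control libraries, and the mutant libraries had an SD of only 0.02. The log2 ratios were -1.003, -0.16 and -0.25, with a mean of -0.47 ± 0.46 (SD, n = 3; limma adjusted p = 0.592). Without array 1 the mean ratio was -0.20.

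**Figure D2:**
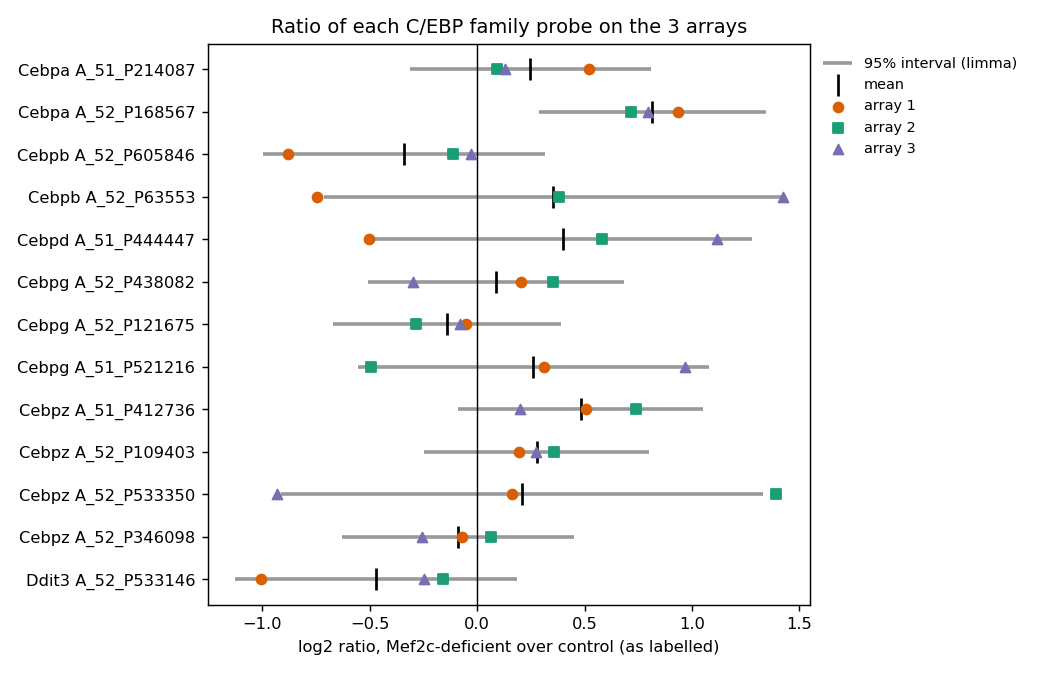
Log2 ratio of mutant over control (horizontal axis) of each C/EBP family probe on arrays 1, 2 and 3, with the mean as a black bar and limma's 95% interval in grey. The interval of Cebpa probe A_52_P168567, 0.29 to 1.34, is the one that does not contain 0.

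Cebpg encodes a short C/EBP protein that pairs with the other members and with ATF4. Its brightest probe (A_52_P438082) had log2 ratios of 0.21, 0.36 and -0.30, and the 3′-most (A_51_P521216) had 0.31, -0.49 and 0.97. Neither kept a direction over the arrays. The third probe (A_52_P121675) read lower in the mutant library of every array, with log2 levels of 12.21, 11.92 and 12.09 in the mutant libraries, against 12.26, 12.21 and 12.17 in the control libraries. Its mean log2 ratio was -0.14 ± 0.13 (SD, n = 3), with a 95% interval of -0.67 to 0.39. Limma's adjusted p over the 3 Cebpg probes ran between 0.789 and 0.909.

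Cebpz encodes a CCAAT-binding protein that is related to ribosome assembly factors. Its brightest, 3′-most probe (A_51_P412736) had log2 levels of 14.48, 14.55 and 14.23 in the mutant libraries, against 13.97, 13.81 and 14.03 in the control libraries. The next (A_52_P109403) had 13.44, 13.40 and 13.27 in the mutant libraries, against 13.24, 13.04 and 12.998 in the control libraries. At both, all mutant libraries lay above all control libraries, with mean log2 ratios of 0.48 ± 0.27 and 0.28 ± 0.08 (SD, n = 3; limma adjusted p = 0.565 and 0.666). With array 2 turned these means were -0.01 and 0.04.

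The other Cebpz probes did not share this. A_52_P533350, 16029 bases from the 3′-most probe, had log2 ratios of 0.16, 1.39 and -0.93. A_52_P346098, 315 bases from the 3′-most probe, had -0.07, 0.06 and -0.26. The SD of the ratios of A_52_P533350, 1.16, was the widest among the 13 probes.

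Across the family, 4 of 13 probes lay above 0 on all 3 arrays (both Cebpa probes and 2 of Cebpz), against 15.9% of all tested probes, and 3 lay below 0 on all 3 (Cebpb A_52_P605846, Cebpg A_52_P121675 and Ddit3), against 18.0%. At 3 probes (Cebpa A_52_P168567 and the same 2 of Cebpz) every mutant level lay above every control level, which 7.51% of tested probes showed. The reverse held at 2 probes (Cebpb A_52_P605846 and Ddit3), against 9.92%. At an unadjusted p under 0.05, 1 of the 13 was higher in the mutant (4.93% of tested probes) and none was lower (4.20%). Probes of 1 gene share their transcripts and are not independent. In limma's fit 0% of all tested probes passed an adjusted p under 0.05, while the unadjusted p was under 0.05 for 1623 higher and 1383 lower probes. The median mean log2 ratio was 0.25 over the 13 probes (9 above and 4 below 0) and -0.01 over all tested probes (16097 above and 16809 below). Without array 3 the members' median was 0.04, with 7 above and 6 below 0. With array 2 turned the median was 0.01, and 1 probe lay above and 1 below 0 on all 3 arrays.

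**Figure D3:**
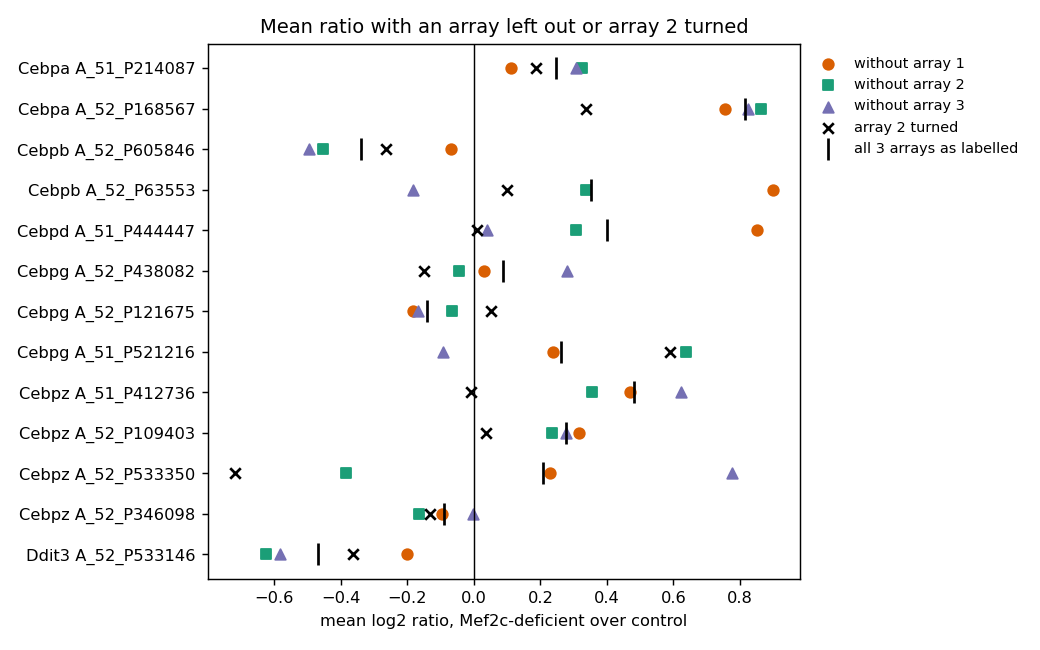
Mean log2 ratio of mutant over control (horizontal axis) of each C/EBP family probe over all 3 arrays, with each array left out in turn, and with the sign of array 2 turned. Cebpa A_52_P168567 stays above 0 in each, between 0.34 and 0.86. Cebpz A_52_P533350 lies at 0.78 without array 3 and at -0.72 with array 2 turned.

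Control library 1 was the highest of the 6 libraries at 6 of the 13 probes: both of Cebpb, Cebpd, Ddit3, Cebpg A_52_P121675 and Cebpz A_52_P346098. Over all tested probes this held for 23.3%. Control library 1 stood above the mean of the other control libraries by 1.59 at Cebpb A_52_P63553, 0.52 at Cebpb A_52_P605846, 1.31 at Cebpd and 0.78 at Ddit3, on the log2 scale. At the same probes, mutant library 1 differed from the mean of the other mutant libraries by -0.06, -0.29, -0.05 and -0.03. At Cebpz A_52_P346098 both library 1 values were high, by 0.88 in the mutant and 0.85 in the control. The Cebpa probes did not stand high in control library 1, with differences of 0.13 (A_52_P168567) and -0.32 (A_51_P214087).

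**Figure D4:**
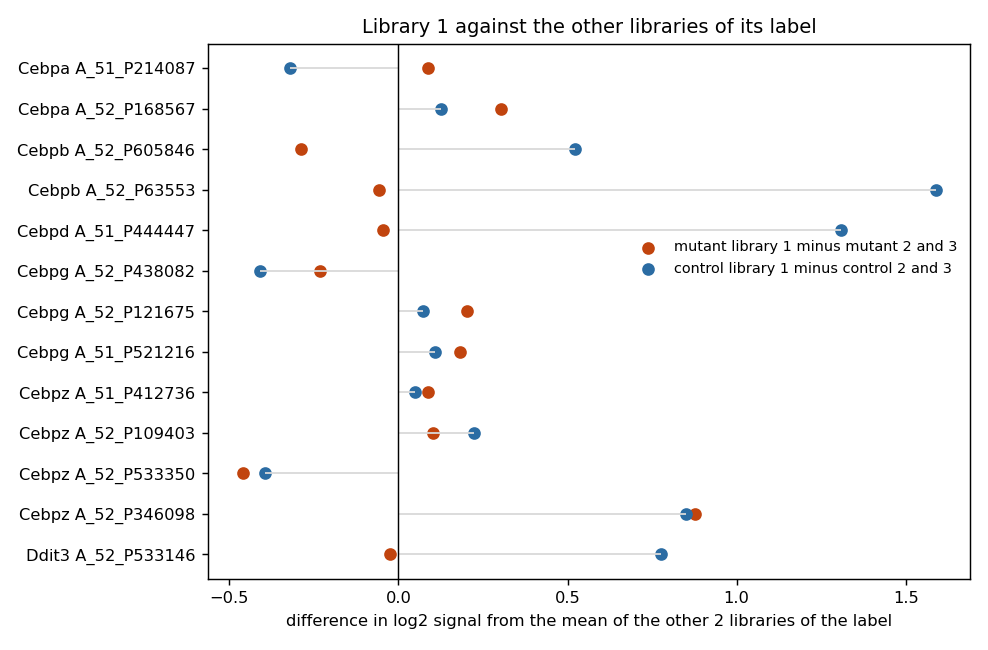
Difference in log2 signal (horizontal axis) between library 1 and the mean of libraries 2 and 3 of the same label, for mutant and control libraries, at each C/EBP family probe. Control library 1 lies 0.52 to 1.59 above the others at Cebpb, Cebpd and Ddit3, where mutant library 1 lies between -0.29 and -0.03.

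Summed over each list, immediate early genes and neutrophil markers stood highest in control library 1. This was not particular to them. Dendritic cell markers (14.74) and erythroid and megakaryocyte markers (15.55) were also highest there, by less. So was every list around the C/EBP family described below, other than the early granulocyte genes. The 15 measured immediate early genes, which many stimuli induce without new protein synthesis, had a summed log2 level of 16.30, 17.28 and 16.99 in mutant libraries 1, 2 and 3, against 19.44, 17.70 and 17.33 in the control libraries. Arrays 1, 2 and 3 gave them median log2 ratios of -4.93, -0.64 and -0.05, and 14 of the 15 had a mean below 0. The 12 measured neutrophil markers of 13 listed had a summed log2 level of 14.03 to 14.32 in the mutant libraries, against 16.72, 14.17 and 14.63 in the control libraries, and none of the 12 was below background in every library. Among these 12 markers 10 means lay below 0 and 2 above. The list median was -2.01 for array 1, -0.04 for array 2 and -0.85 for array 3. Over all arrays it was -1.17, against -0.58 without array 1. The largest means in size were -1.95 ± 2.45 for Ngp and -1.94 ± 1.77 for S100a9, a calprotectin subunit of neutrophils (SD, n = 3). Array 2 by itself put Ngp at 0.57 and S100a9 at -0.12. Their part in the values of Cebpb, Cebpd and Ddit3 was not tested. Without array 1 the Ddit3 ratio was -0.20 and the Cebpb and Cebpd means were those given above.

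Most monocyte and macrophage markers had a mean log2 ratio above 0, as did both Cebpa probes. Of 13 listed, 10 passed the filter and 8 of them had a mean above 0, while C1qb (-0.02) and Vcam1 (-0.05) lay below 0. Of the 10, 5 lay above 0 on all 3 arrays, against 3372 of all 22220 genes tested by 1 probe each. The 12 with a probe on the array had a summed log2 level of 14.60 to 15.11 in the mutant libraries, against 14.03 to 14.45 in the control libraries. Fcgr1, a high-affinity IgG receptor, had a mean log2 ratio of 1.14 ± 0.21 and Adgre1, the F4/80 antigen, one of 1.002 ± 0.20 (SD, n = 3; limma adjusted p = 0.543 for both). Turning array 2 gave means of 0.54 for Fcgr1 and 0.18 for Adgre1, and a list median of 0.23, against 0.33 as labelled. Of the 12, 8 were well above background in all 6 libraries (C1qa, C1qb, Cd68, Csf1r, Vcam1 and Ccr2 with Fcgr1 and Adgre1). Axl was well above background in the 3 mutant libraries and in no control library, and Mrc1 and Mertk were not well above it in any library. Their part in the Cebpa values was not tested. In bulk samples, fewer cells of a type and less RNA per cell cannot be told apart.

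Among the other marker lists, the LSK list had 3 of 7 genes above 0 and a median log2 ratio of -0.29, with Procr at -1.57 and Slamf1 at 1.16 as labelled, and at -0.11 and -0.36 with array 2 turned. Median log2 ratios were 0.03 for 7 mast cell and basophil genes, -0.49 for 7 dendritic cell genes, -0.43 for 7 B lineage genes, -0.32 for 8 T and NK genes, -0.16 for 7 erythroid and megakaryocyte genes and -0.27 for 6 stromal and endothelial genes. Turned, array 2 gave medians of 0.20 for mast cell and basophil, 0.10 for dendritic cell, -0.17 for B lineage, 0.09 for T and NK, -0.05 for erythroid and megakaryocyte and -0.16 for stromal and endothelial genes. The genes with the largest mean log2 ratios in size, as labelled, were Ms4a2 (0.56) and Il4 (0.31) for mast cells and basophils, Flt3 (-1.15) and Cd74 (-1.10) for dendritic cells, and Rag1 (-1.39) and Vpreb1 (-0.52) for the B lineage. They were Klrb1c (-1.08) and Cd3g (-0.77) for T and NK cells, Hba-a1 (-1.68) and Slc4a1 (-1.32) for erythroid cells and megakaryocytes, and Col1a2 (0.40) and Pdgfra (-0.35) for stroma and endothelium. Flt3 belongs to the LSK list as well as the dendritic cell list. As labelled, its log2 ratio was -1.02 for array 1, -1.26 for array 2 and -1.19 for array 3. Turning array 2 brought the Flt3 mean to -0.32. No gene of any list passed the adjusted test.

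As labelled, the genes that C/EBPα drives in early granulocyte development mostly had a mean log2 ratio above 0, though few were above 0 on every array. On all 3 arrays 3 genes of the list lay above 0 and 1 below, against 3372 and 4513 of all 22220 genes tested by 1 probe each. Of 8 measured genes on this list (9 listed), 7 had a mean log2 ratio above 0, with a median of 0.20, against -0.04 over all 22220 genes tested by 1 probe each, of which 10082 lay above 0. At an unadjusted p under 0.05, 2 of the 8 were higher, against 4.34% of all genes, and none passed the adjusted test. Prtn3, the primary granule protease proteinase 3, had log2 levels of 15.53, 15.48 and 15.35 in the mutant libraries, against 14.41, 14.22 and 14.66 in the control libraries. Elane, neutrophil elastase, had 15.87, 16.38 and 16.28 in the mutant libraries, against 15.27, 15.02 and 15.51 in the control libraries. At both genes every mutant library read above every control library, which 7.51% of all tested probes showed. Both were named for having the largest means of the list. Their mean log2 ratios were 1.03 ± 0.29 for Prtn3 and 0.91 ± 0.40 for Elane (SD, n = 3, limma adjusted p = 0.543 for both). Without array 2 and without array 3, 5 of the 8 means lay above 0 each time. Turning array 2 left 3 means above 0 and 5 below, and gave the list a median of -0.13, Prtn3 a mean of 0.19 and Elane one of 0.003.

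The secondary granule genes, which depend on C/EBPε and appear late in granulocyte maturation, read lower in mutant libraries on array 1 and not on array 2. Of 10 measured, 3 had a mean above 0 and 7 below, with a median of -0.15. At an unadjusted p under 0.05, 2 were lower (Camp and Fcnb), against 4.58% of all genes. Camp, the cathelicidin antimicrobial peptide, had log2 levels of 9.18, 8.74 and 8.29 in the mutant libraries, against 12.07, 9.74 and 9.74 in the control libraries. Ngp, neutrophilic granule protein, had 10.19, 10.86 and 7.74 in the mutant libraries, against 14.52, 10.30 and 9.83 in the control libraries. Both had their highest level in control library 1, where the neutrophil markers, a list that holds 5 of these genes including Camp and Ngp, were also highest. Arrays 1, 2 and 3 gave the secondary granule list medians of -1.17, 0.56 and -0.06. Without array 1 its median was 0.25, with 7 of 10 genes above 0, beside 0.36 for the early granulocyte list. Without array 2 and without array 3 it was -0.51 each time, and with array 2 turned -0.64. Camp had a mean of -1.78 as labelled and -1.11 with array 2 turned.

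**Figure D5:**
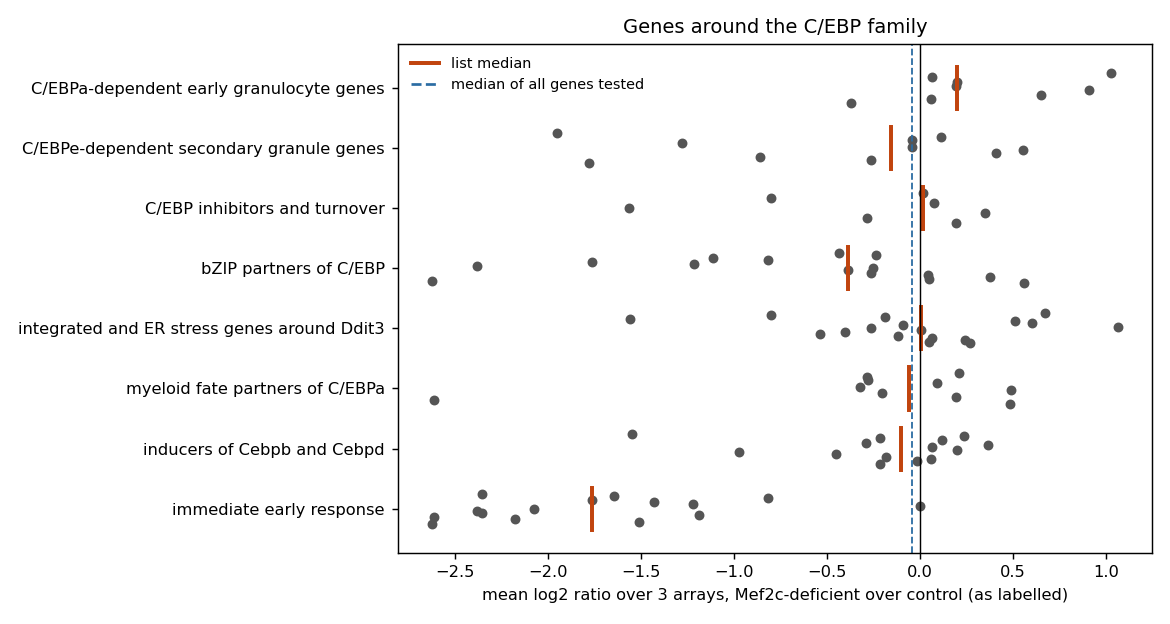
Mean log2 ratio of mutant over control (horizontal axis) of each measured gene in the lists around the C/EBP family, with 1 point per gene, the list median as an orange bar and the median of all genes tested as a dashed line at -0.04. The early granulocyte genes have a median of 0.20, the basic leucine zipper partners one of -0.39 and the immediate early genes one of -1.76.

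Partners of C/EBP proteins among the basic leucine zipper factors read mostly lower. Of 15 measured, 11 had a mean below 0, with a median of -0.39. At an unadjusted p under 0.05, 2 were lower (Hlf and Junb, against 4.58% of all genes) and none higher (4.34%). The list's median was -0.07 with array 2 turned, when 9 of 15 lay below 0, and -0.61 with median centring of the arrays. The largest means were those of Atf3, a stress-induced repressor, and Fos, a subunit of AP-1. Atf3 had log2 levels of 8.16, 8.52 and 8.35 in the mutant libraries, against 14.81, 8.79 and 9.30 in the control libraries. Fos had 10.10, 13.18 and 12.18 in the mutant libraries, against 16.59, 13.82 and 12.18 in the control libraries. Array 1 carried most of both differences, and 4 of these 15 genes (Atf3, Fos, Jun and Junb) are also on the immediate early list.

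Genes listed as inhibitors of C/EBP proteins or for a part in protein turnover showed no common direction, with 4 of 7 above 0 and a median of 0.02. Trib1, a pseudokinase that brings C/EBPα to the ubiquitin ligase COP1 for degradation, had log2 levels of 9.79, 7.20 and 8.70 in the mutant libraries, against 14.29, 7.04 and 9.05 in the control libraries. Control library 1 stood apart, and the mean log2 ratio was -1.56 ± 2.55 (SD, n = 3; limma adjusted p = 0.601). Trib3, a relative that is a target of CHOP, had 9.88, 9.21 and 8.81 in the mutant libraries, against 10.58, 9.73 and 9.99 in the control libraries. Its log2 ratio was below 0 on each array, with a mean of -0.80 ± 0.34 (SD, n = 3; limma adjusted p = 0.543), and -0.46 with array 2 turned. With that array turned the list's median was -0.07.

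The stress genes around Ddit3 were split, with 9 of 17 above 0 and a median of 0.00, and at an unadjusted p under 0.05 there were 2 higher genes (4.34% of all genes) and 1 lower (4.58%). Ppp1r15a, the GADD34 subunit that lifts the translational block of the stress response, had log2 ratios of -3.57, -0.25 and -0.84. Ero1a, an oxidase of the endoplasmic reticulum that CHOP is known to induce, had 1.81, 1.46 and -0.07, with a mean of 1.07 as labelled and 0.10 with array 2 turned. As labelled these directions are opposite, and neither gene passed the adjusted test (limma adjusted p = 0.55 for Ppp1r15a and 0.543 for Ero1a).

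Myeloid fate factors that act with C/EBPα had 5 of 10 above 0 and a median log2 ratio of -0.06, and none was past an unadjusted p under 0.05. Egr1, an immediate early factor of macrophage differentiation, had log2 ratios of -6.11, -1.91 and 0.19. Irf8, a monocyte and dendritic cell regulator that restrains C/EBPα, had -0.05, 0.30 and 1.22. Means with array 2 turned were -1.34 for Egr1 and 0.29 for Irf8, against -2.61 and 0.49 as labelled. Among 14 measured genes of pathways that induce Cebpb and Cebpd (15 listed), 6 lay above and 8 below 0, with a median of -0.10. These pathways hold feedback inhibitors as well as inducers. Of the 14, 1 was lower at an unadjusted p under 0.05, against 4.58% of all genes. That gene was Tnf, an inflammatory cytokine, with log2 ratios of -3.20, -0.79 and -0.65. Il1r1, the receptor of interleukin 1, had 0.20, -1.55 and -1.57, with a mean of -0.97 as labelled and 0.06 with array 2 turned. The mean of Tnf was -1.55 as labelled and -1.02 with array 2 turned.

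No member spanned 2 log2 units over the 6 libraries, the range set for naming genes of like pattern, and the widest was Cebpb A_52_P63553 with 1.86. No gene was therefore named by its likeness to a member.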

How the data were processed

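Sorted LSK cells of mutant and control mice were hybridised in pairs on 3 two-channel Agilent arrays after global PCR amplification of cDNA (SuperAmp), with 250 ng of cDNA labelled, per the labels' protocols. That amplification can distort the level of single transcripts. The authors' scanner files give the intensity of each spot, on a linear scale, as read by Feature Extraction (version 9.5.1.1), per the file headers. They also give log10 of the Cy5 to Cy3 ratio, per the file headers. The authors also deposited a log2 ratio per spot, for which limma is named, without a version, per the submitters' processing notes. Its scale was read as log2 from bright spots (slopes of -0.998, 0.999 and -0.999 against the scanner's log2 ratio of Cy5 over Cy3). How it was normalized, not given in the sources used here, remains unknown. The column medians were -0.0148, 0.0129 and -0.00249, and each column had 201 empty rows, so filled rows were matched in order.

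Mean foreground and median local background intensities, as deposited, were corrected by normexp (offset 50) and normalized by loess within each array, with control spots at zero weight, and outlier spots (300, 331 and 252 on arrays 1, 2 and 3) were left out. Levels of single channels were also normalized between arrays by Aquantile. A probe was kept if at least 2 arrays measured it and at least 2 had it well above background in the mutant channel, or at least 2 in the control channel. Log2 ratios of mutant over control were tested against 0 by lmFit with an intercept alone and eBayes (limma 3.58.1, R 4.3.3) and adjusted by Benjamini-Hochberg over all kept probes. The fit was tested on simulated data, with a simulation that was revised after its first version recovered too few changed probes. Changes of the smallest simulated size were not called, and few of the next size were, so a probe that missed the adjusted test may still differ. In gene lists a gene was represented by its kept probe of highest mean log2 intensity. Of 41174 probes, 22951 took a current symbol through a RefSeq accession, 6659 through the symbol, 3109 were matched by synonym, and 8455 keep the file's name.

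Alternatives were no background correction, Agilent's processed signals, median centring, no filter, a stricter filter, 1 probe per gene, each array left out, array 2 turned and the deposited ratios. For the last, the deposited column of array 2 was given the labelled direction. The members and gene lists were chosen with earlier results of these data known. Named were all member probes and the Mef2c probes, and of each list the called genes (up to 4) or otherwise the 2 with the largest mean ratio in size. Kit, Ly6a, C1qa, C1qb, Cd68, Csf1r, Vcam1, Ccr2, Axl, Mrc1, Mertk, Jun, Junb, Fcnb and Hlf were named outside that rule, after their values were seen. The dim Mef2c probe (A_52_P282110), above background in 2 mutant libraries and 1 control library, had a mean log2 ratio of 0.52 ± 0.48 (SD, n = 3; limma adjusted p = 0.573).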

Additional observations from a re-analysis of the deposited data

How the results depend on the processing

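No member probe passed an adjusted p under 0.05 in any setting run, and limma called 0 of all tested probes in each. The mean log2 ratios of the 13 member probes kept their direction without background correction, with Agilent's processed signals and with median centring. They also kept it with no filter and with the stricter filter, as did the 6 kept with 1 probe per gene. With the deposited ratios the 13 means kept their direction once the array 2 column was given the labelled direction. That setting is therefore no check of the sign of array 2. Without array 1 all 13 also kept it. Leaving out 1 array at a time gave -0.18 to 0.90 for Cebpb A_52_P63553, -0.0450 to 0.28 for Cebpg A_52_P438082, -0.0914 to 0.64 for Cebpg A_51_P521216 and -0.38 to 0.78 for Cebpz A_52_P533350, whose signs therefore rest on single arrays. With array 2 turned, 4 means changed sign, to -0.15 for Cebpg A_52_P438082, 0.0508 for Cebpg A_52_P121675, -0.0099 for Cebpz A_51_P412736 and -0.72 for Cebpz A_52_P533350. Counts of higher and of lower probes with an unadjusted p under 0.05 were 1623 and 1383 as reported, 800 and 2744 with median centring, 470 and 637 with array 2 turned, and 1069 higher with 1 probe per gene, where fewer probes were tested. Leaving out 1 array gave 851 to 2255 higher and 761 to 1555 lower. For the other settings the cause was not tested. The test of the ratios is itself paired, since mutant and control shared each array, and no further replicate block could be fitted. All member probes were well above background in all 6 channels.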
